A study of Mus musculus with 2 samples.

Results

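The genes of the mitochondrial respiratory chain and ATP synthase were compared between pancreatic islets of 2 mouse strains. Members were the protein-coding genes whose symbols start with Nduf, Sdh followed by a to d, Uqcr, Cox followed by a digit, Atp5, mt-Nd, mt-Co, mt-Cytb or mt-Atp, together with Cyc1 and Cycs. This gave 121 of the 38924 genes in the files, 108 in the nuclear and 13 in the mitochondrial genome. The prefixes also take in 21 assembly factors (Ndufaf and Sdhaf genes, Cox10, Cox11 and Cox14 to Cox20), which are reported apart from the subunits.

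Islets, which hold the hormone-secreting cells of the pancreas, came from male C57BL/6J mice (B6), the strain of the mouse reference genome, and male CAST/EiJ mice (CAST), an inbred strain of the wild-derived subspecies castaneus. All mice were 10 weeks old and untreated, and the islets of 2 mice per strain were pooled before 250 islets were taken for RNA. Isolation used collagenase (0.45 mg/ml, 16 min), a density gradient and hand picking in buffer with 16.7 mM glucose. There was 1 library per strain, with 76600903 counts for B6 and 104324631 for CAST, so no difference was tested and every 95% interval covers counting error only. Beta cell markers were present at a summed level of 490166 TPM (transcripts among 1000000) in B6 and 557435 in CAST, and the 9 acinar cell markers at 4951 and 15326. Ins2 alone held 404421 and 477729 TPM of the beta cell sums. The median log2 ratio of the 9 beta cell markers was 0.11, with Iapp (-0.01), Pdx1 (-0.21) and G6pc2 (-0.38) below 0 and the others above. Alpha cell markers summed to 65930 and 39338 TPM, with a median log2 ratio of -0.79. The 5 delta, PP and epsilon cell markers had a median of 0.04, from -0.90 (Sst) to 1.76 (Ghrl). The duct markers had a median ratio of 1.12 (summed level 114 and 95.4 TPM) and the fibroblast and stellate cell markers 1.19 (20.0 and 32.7 TPM). The part of these differences in the ratios reported here was not tested. In such bulk RNA, fewer cells of a type and less RNA per cell cannot be told apart.

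The respiratory chain passes electrons from NADH (complex I) and succinate (complex II) through complex III and cytochrome c to oxygen at complex IV, and the proton gradient it builds drives ATP synthesis at complex V. Most subunits are encoded in the nucleus and imported, while a core set in complexes I, III, IV and V is encoded by mitochondrial DNA. In beta cells the ATP made this way closes potassium channels and so links glucose to insulin release.

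Many of these genes have near-identical copies elsewhere in the genome, either processed pseudogenes or stretches of mitochondrial DNA inserted in a chromosome. The authors' counting shares reads among such copies, and reads of both strains were assigned on the B6-based build GRCm38. How many CAST reads were left out for differing from that build was not measured, for genes with or without a copy. A copy was counted when its transcript matched that of a member with at least 95% identity, and 24 nuclear and 5 mitochondrially encoded members had one. The pairs below are shown because the copy had few or no counts in B6 and many in CAST. They are coding sequence of the member and the aligned stretch of the copy from GENCODE M21 transcripts (GRCm38), 5′ to 3′, with bases that differ in capitals.

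mt-Co1 (chrM:6005-6064, plus strand): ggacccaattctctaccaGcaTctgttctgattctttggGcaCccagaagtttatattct
Gm13340 (chr2:22588911-22588970, minus strand): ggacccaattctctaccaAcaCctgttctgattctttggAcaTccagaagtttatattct
mt-Nd2 (chrM:4686-4745, plus strand): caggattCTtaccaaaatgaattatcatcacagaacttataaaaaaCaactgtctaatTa
Gm13339 (chr2:22590230-22590289, minus strand): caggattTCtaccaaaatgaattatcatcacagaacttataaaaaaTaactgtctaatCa
Ndufs5 (chr4:123715958-123716017, minus strand): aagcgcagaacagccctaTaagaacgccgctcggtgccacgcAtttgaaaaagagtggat
BC002163 (chr16:42955693-42955752, plus strand): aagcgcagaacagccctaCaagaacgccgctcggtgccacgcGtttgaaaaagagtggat
Cox7a2l (chr17:83502684-83502737, minus strand): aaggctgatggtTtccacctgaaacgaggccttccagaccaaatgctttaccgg
Gm6969 (chr12:24638750-24638809, minus strand): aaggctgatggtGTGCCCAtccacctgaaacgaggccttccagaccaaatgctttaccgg

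The mt-Co1 pair differed at 37 of 1545 aligned bases and the mt-Nd2 pair at 17 of 510, which is only part of mt-Nd2. Ndufs5 and its intronless copy differed at 2 of 319 bases, both in the stretch shown. The copy Gm6969 holds 6 bases that the reference Cox7a2l lacks, beside 2 substitutions over the aligned stretch. C57BL/6 mice are known to carry a shortened form of the Cox7a2l protein. Which bases the CAST reads carried at these positions was not examined here.

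Nuclear subunit genes lay above the middle gene of the CAST to B6 comparison. The ratio used is the log2 of CAST over B6 counts after TMM scaling, a correction for library composition, with 0.5 added. It is given where the libraries together hold at least 100 counts. On this scale the median of all 14768 genes was 0.02, and the middle 50% of genes ran from -0.29 to 0.28. The 81 nuclear subunit genes with enough counts had a median of 0.28, 0.26 above that of all genes, and 71 of them lay above the all-gene median. Assembly factors had a median of 0.11, with 14 of 21 above the all-gene median. The 13 mitochondrially encoded genes had a median of 0.01, with 6 of 13 above the all-gene median.

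The direction of the nuclear subunits is relative to other genes and depends on the scaling when taken by itself. With total counts their median was 0.13 and that of all genes -0.14. With the deposited fractions as TPM (1 added) their median was -0.06, below 0, and that of all genes -0.26. The distance from the all-gene median was 0.26 with TMM, total counts or DESeq2 size factors and 0.20 with TPM, and 71, 71, 71 and 68 of the 81 lay above that median. TPM is a share of all transcripts, so it depends on the share of very abundant ones such as insulin. Transcript length largely divides out of a ratio of the same gene. The 1 added to TPM pulls the ratios of genes at low levels towards 0. Why the distance was smaller with TPM was not tested. All further ratios are TMM-scaled unless stated.

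**Figure D1:**
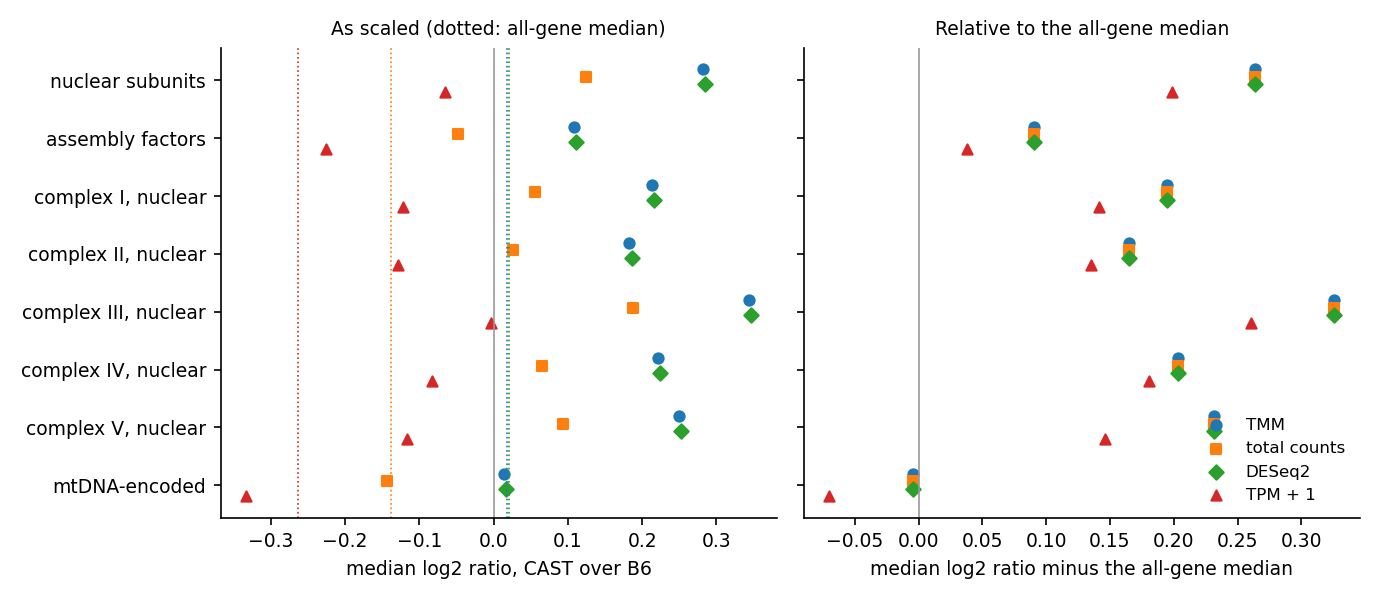
Median log2 ratio of CAST over B6 for groups of respiratory chain genes under 4 scalings, as scaled (left, dotted lines mark the all-gene median of each scaling) and after the all-gene median was subtracted (right). The nuclear subunits move from 0.28 with TMM to -0.06 with TPM on the left, but stay between 0.20 and 0.26 above the all-gene median on the right.

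By at least 25%, 36 members were higher in CAST and 9 in B6, against 22.2% and 23.2% of all genes tested. With total counts the split was 19 and 14, against 15.1% and 33.5% of all genes. With TPM it was 3 and 24, against 8.18% and 42.7%. Measured from the all-gene median in place of 0, 28 of the 81 nuclear subunits lay at least 25% above and 4 at least 25% below, where 21.1% and 24.3% of all genes did. At least 2-fold, Cox6a2 was higher in CAST and Ndufs5 and mt-Nd3 in B6, against 7.18% and 5.99% of all genes. The nuclear members were thus mostly shifted by small amounts, and few stood far from the rest.

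Nuclear members are short and abundant, and such genes as a class lay high in this comparison too. Their median main transcript was 795 bases long, against 2908 for other protein-coding genes. Among 386 other protein-coding genes with both length and level inside the middle 50% of the members' range, the median log2 ratio was 0.16 and 69.2% were above 0. At the median these genes were still longer and less abundant than the members (969.5 against 795 bases, 42.9 against 61.8 TPM). All 102 nuclear members with enough counts, inside and outside those ranges, had 0.25 and 84.3%. The part of length and level in the members' shift was not tested.

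**Figure D2:**
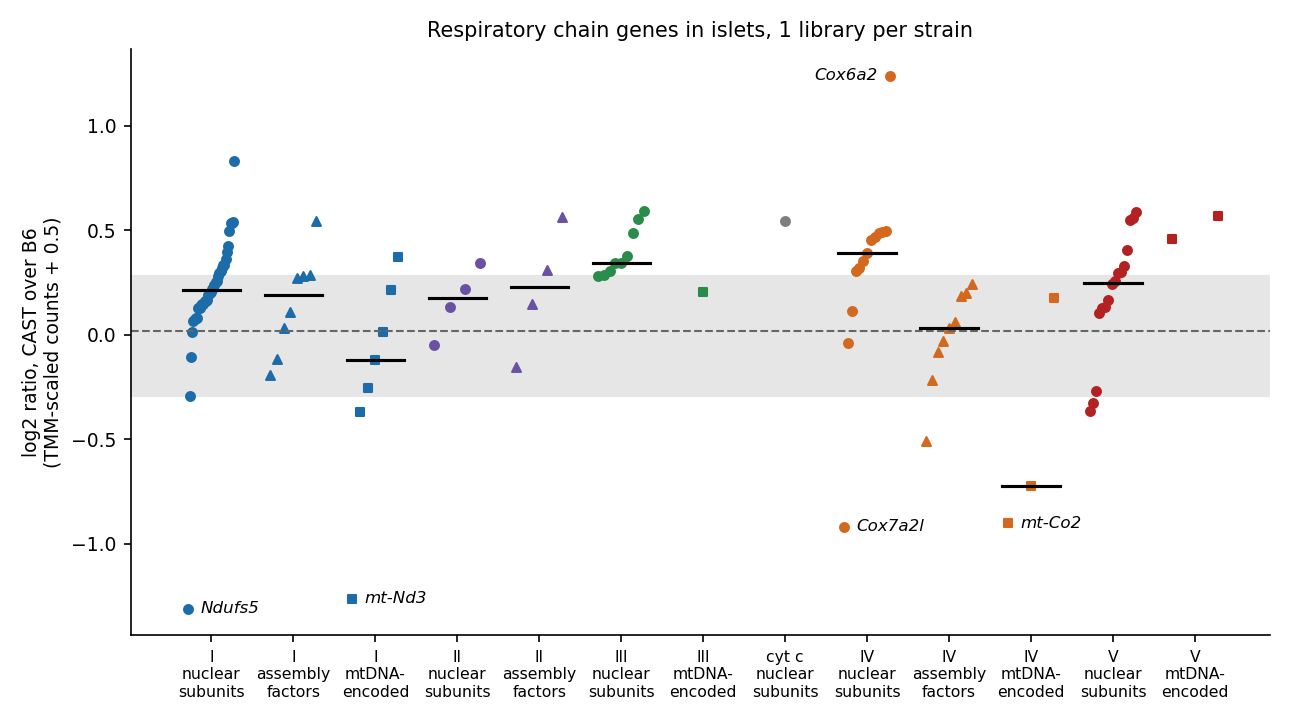
Log2 ratio of CAST over B6 for each member with 100 or more counts, by complex and kind of gene (circles nuclear subunits, triangles assembly factors, squares mitochondrially encoded genes); black bars are medians of groups of 3 or more. The dashed line and grey band are the median (0.02) and middle 50% of all genes (-0.29 to 0.28); the 9 nuclear complex III genes all lie near or above the top of the band.

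Complex I, the NADH dehydrogenase, had 46 nuclear members with a median of 0.21, and 40 of them lay above the all-gene median. Of the subunits that carry its flavin and iron-sulfur clusters, Ndufs8 had 1394 counts in the B6 and 2472 in the CAST library (log2 0.54, 0.44 to 0.63), and Ndufv1 4710 and 7190 (0.32, 0.27 to 0.37). Ndufs1, the largest subunit, had 6155 and 8588 (0.19, 0.14 to 0.24). These core genes lay above the all-gene median, as did the accessory subunit genes Ndufb8 (4353 and 7698 counts, 0.53) and Ndufb9 (4016 and 7112, 0.54). Ndufa6, an accessory subunit, was among the few below, with 3780 and 3766 counts (-0.29, -0.36 to -0.23). Ndufa4, grouped here by its symbol but now regarded as a subunit of complex IV, had 3649 and 4141 (-0.11, -0.17 to -0.04). Among the assembly factors Ndufaf5, with 519 and 924 counts, was highest at 0.54 (0.39 to 0.70).

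Ndufs5, a small accessory subunit on the intermembrane side of complex I (ENSMUSG00000028648, chromosome 4, 123712710 to 123718202), had 3361 counts in the B6 and 1655 in the CAST library. Alone it was 2.48-fold higher in B6 (log2 -1.31, -1.40 to -1.23). Its copy BC002163, on chromosome 16, had 0 counts in the B6 and 2452 in the CAST library. Summed, gene and copy differed by log2 0.00. The lower count of Ndufs5 in CAST was thus matched by counts at the copy printed above. The sum still lay below the medians with copies of all genes (0.04) and of nuclear subunits (0.29).

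The 7 mitochondrially encoded subunits of complex I form its membrane arm and ran from -1.26 to 0.37. mt-Nd3 had 23916 counts in the B6 and 12172 in the CAST library and was 2.40-fold higher in B6 (log2 -1.26, -1.30 to -1.23), the lowest of all 13 mitochondrial genes. No copy of mt-Nd3 was found at 95% or 90% identity among the transcripts of the deposited data. The cause of its lower count in CAST was not tested. mt-Nd4 was nearly level (170318 and 210035 counts, 0.01), mt-Nd1 had 117165 and 119847 (-0.26), and mt-Nd5 188034 and 177972 (-0.37). mt-Nd6, the only one of the 13 encoded on the other strand, had 41263 and 46329 (-0.12) and overlaps mt-Nd5. mt-Nd4l had 8584 and 13576 counts (0.37), and its copy Gm10222 on chromosome 1, identical over all 294 bases, was given the same 8584 and 13576. For that pair the authors' counting could not tell gene from copy, and the true count of mt-Nd4l may be as high as the sum.

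Complex II, succinate dehydrogenase, is the only complex with no mitochondrially encoded subunit, and its 4 subunit genes differed little. Sdha, the flavoprotein, had 17896 counts in the B6 and 24004 in the CAST library (log2 0.13, 0.11 to 0.16). Sdhb, the iron-sulfur subunit, had 3508 and 5428 (0.34, 0.28 to 0.40). The membrane anchors Sdhc and Sdhd had 5822 and 8284 counts (0.22) and 7714 and 9097 (-0.05). The 4 subunits thus spread over less than 0.4 log2 units, with Sdhd at the bottom. Of the assembly factors Sdhaf4 was highest (980 and 1769 counts, 0.56, 0.45 to 0.68) and Sdhaf3 lowest (424 and 465, -0.16, -0.35 to 0.04).

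Complex III, which hands electrons from ubiquinol to cytochrome c, was the most uniform of the nuclear groups by range. All 9 nuclear members lay above the all-gene median under each of the 4 scalings, and their ratios ran from 0.28 to 0.59 with a median of 0.34. With TPM the median by itself was 0.00 (-0.0032), 0.26 above that of all genes. Uqcrc1, a core protein on the matrix side, had 5747 counts in the B6 and 10574 in the CAST library (0.59, 0.54 to 0.64). The small subunits Uqcrq and Uqcr10 had 2669 and 4778 (0.55) and 2054 and 3515 (0.49). The electron carriers of the complex lay in the middle, with the Rieske iron-sulfur protein gene Uqcrfs1 at 5376 and 8336 (0.34) and cytochrome c1, Cyc1, at 3672 and 5694 (0.34). mt-Cytb, the mitochondrially encoded cytochrome b, had 243182 and 341980 counts (0.20, 0.20 to 0.21).

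Cycs, which encodes cytochrome c, had 2124 counts in the B6 and 3784 in the CAST library (log2 0.54, 0.47 to 0.62). Its near-identical gene Gm10053 on chromosome 19, annotated as protein-coding and 99.9% identical over 946 bases, had 2283 and 4013. The gene and this copy differed between the libraries by nearly the same proportion. As the counting shares reads among such copies, these are not separate measurements. Summed with all 5 copies, the ratio was 0.53.

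Complex IV, cytochrome c oxidase, split by kind of gene. Its 13 nuclear subunit genes with enough counts had a median of 0.39, its 9 assembly factors 0.03, and its 3 mitochondrially encoded subunits were at -0.72, -0.90 and 0.17. Cox4i1 and Cox5a, nuclear subunits that join the complex early, had 7157 and 12283 counts (0.49) and 2076 and 3553 (0.49). Cox8a had 9808 and 16379 counts (0.45) and, at 326 TPM in B6 and 349 in CAST, the highest level of the nuclear members per length. Cox5b, which had 4149 and 4927 (-0.04), was at 0.10 with its copy Gm11273 (0 and 521 counts). The lowest assembly factor was Cox16, with 2413 and 2070 counts (-0.51, -0.60 to -0.42), whose locus overlaps the readthrough gene Gm20498. Its transcript Cox16-202 went from 76.1% to 42.1% of the gene's TPM, and Cox16-206 from 5.14% to 22.5%.

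mt-Co1, the catalytic subunit with the site of oxygen reduction, had 733862 counts in the B6 and 543689 in the CAST library (log2 -0.72, -0.73 to -0.72). Its copy Gm13340 on chromosome 2 had 37 counts in the B6 and 347737 in the CAST library, and the sum differed by -0.01. mt-Co2, which accepts electrons from cytochrome c, had 271342 and 177504 counts (-0.90, -0.91 to -0.89), its copy Gm13341 3 and 80302, and the sum was at -0.36. mt-Co3 had 333743 and 460357 counts and no copy (0.17, 0.17 to 0.18). The 2 lower subunits of complex IV were thus those with a copy that had counts in CAST.

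The 3 copies Gm13341, Gm13340 and Gm13339 lie side by side on chromosome 2 (22587291 to 22590533) and together had 43 counts in the B6 and 501963 in the CAST library. Gm13339 matches part of mt-Nd2 and had 3 and 73924. mt-Nd2 itself had 100044 and 141911 counts (0.22, 0.20 to 0.23), so that the sum moved away from the other genes, to 0.82. mt-Nd5 also had a copy with counts in CAST, Gm4076 (2 and 8411), and went from -0.37 to -0.30. The mitochondrially encoded genes held 3.16% of all counts in B6 and 2.46% in CAST, and 3.17% and 2.96% with the copies, so most of the lower share in CAST lay at the copies.

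**Figure D3:**
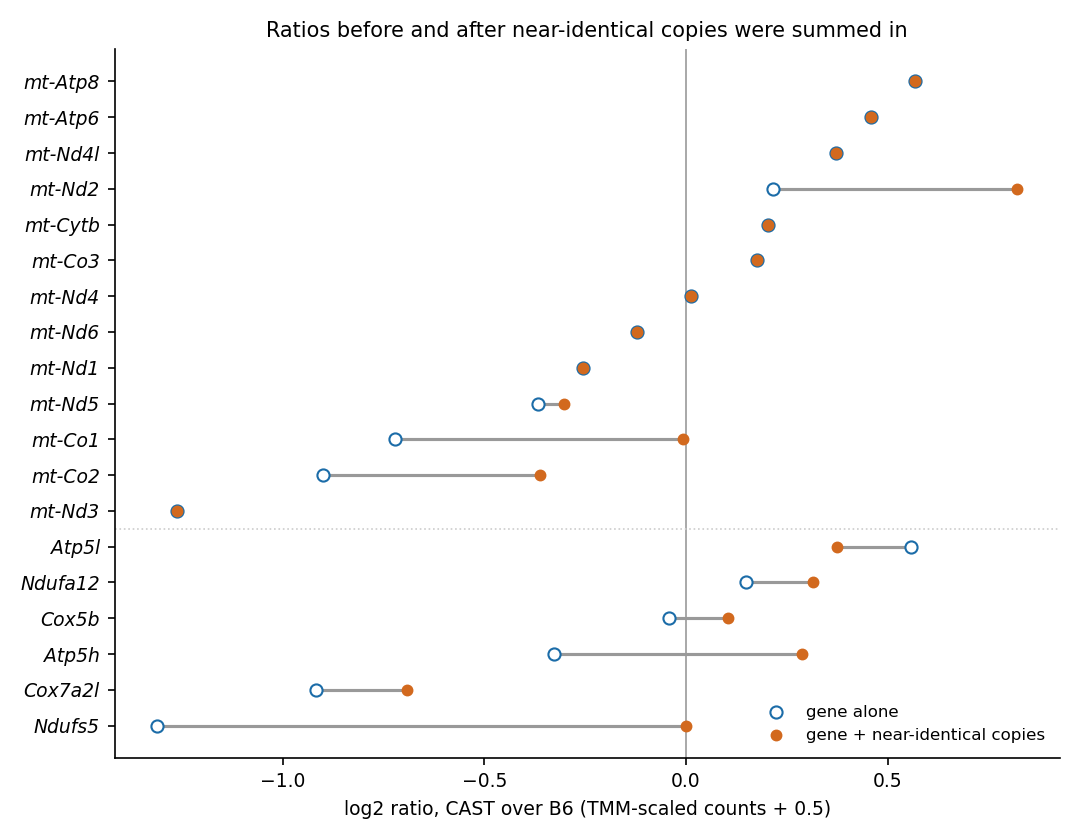
Log2 ratio of CAST over B6 of each mitochondrially encoded gene (above the dotted line) and of the nuclear members that moved by over 0.1 (below it), alone (open) and with near-identical copies summed in (filled). mt-Co1 moves from -0.72 to -0.01, Ndufs5 from -1.31 to 0.00 and Atp5h from -0.33 to 0.29, whereas mt-Nd3 stays at -1.26 and mt-Nd2 moves from 0.22 to 0.82.

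Cox6a2, the heart and skeletal muscle form of subunit 6A (ENSMUSG00000030785, chromosome 7, 128205435 to 128206387), was the only member at least 2-fold higher in CAST on the TMM scale. It had 2162 counts in the B6 and 6230 in the CAST library, 2.36-fold more (log2 1.24, 1.17 to 1.31). With TPM its ratio was 0.88, short of 2-fold. The liver form Cox6a1 had 6020 and 10171 counts (0.47, 0.42 to 0.51). The level of Cox6a2 was 57.8 TPM in B6 and 107 in CAST, and its share of the pair 23.4% and 34.3% of TPM. The 8 skeletal and heart muscle markers summed to 1.11 TPM in B6 and 1.09 in CAST. Most of this was Acta1, with 73 and 122 counts (0.83 and 0.89 TPM, log2 0.45), while Ckm, muscle creatine kinase, had 2 and 3 counts. Cox6a2 was counted at a level far above these 8 markers together, and no near-identical copy of it was found. Which cells its counts came from was not tested.

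The other muscle forms of complex IV were nearly absent. Cox7a1 had 35 counts in the B6 and 30 in the CAST library, and Cox8b 1 and 0. The testis forms Cox6b2, Cox7b2 and Cox8c had 7 and 9, 1 and 0, and 0 and 0. A count of 0 for Cox8c allows a share of up to 0.0306% of its family's counts in B6 and 0.0183% in CAST. Cox4i2, a form linked to low oxygen, held 1.13% of the Cox4i pair in B6 and 1.14% in CAST by TPM, and Ndufa4l2, also linked to low oxygen, 3.59% and 4.47% of its pair. In both libraries the RNA of the widespread forms was thus the larger part of each of these pairs and families. Cox6a2 was also the smaller part of its pair, but with a sizeable share of 23.4% in B6 and 34.3% in CAST by TPM.

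Cox7a2l, also known as SCAF1, a protein that joins complexes III and IV into supercomplexes, had 17686 counts in the B6 and 11436 in the CAST library (ENSMUSG00000024248, chromosome 17, 83501918 to 83517330). It was 1.89-fold higher in B6 (log2 -0.92, -0.95 to -0.88), against a background of nuclear subunits that lay the other way. Its copy Gm6969 on chromosome 12, printed above with its 6 further bases, had 34 counts in the B6 and 1961 in the CAST library. Summed, the ratio was -0.69, still below the all-gene median. Among Cox7a1, Cox7a2 and Cox7a2l, its share went from 74.5% to 59.0% of TPM, and from 74.7% to 70.4% with the copy added, an alternative chosen after seeing the data. In the same family, Cox7a2 had 4000 and 5290 counts (0.11).

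**Figure D4:**
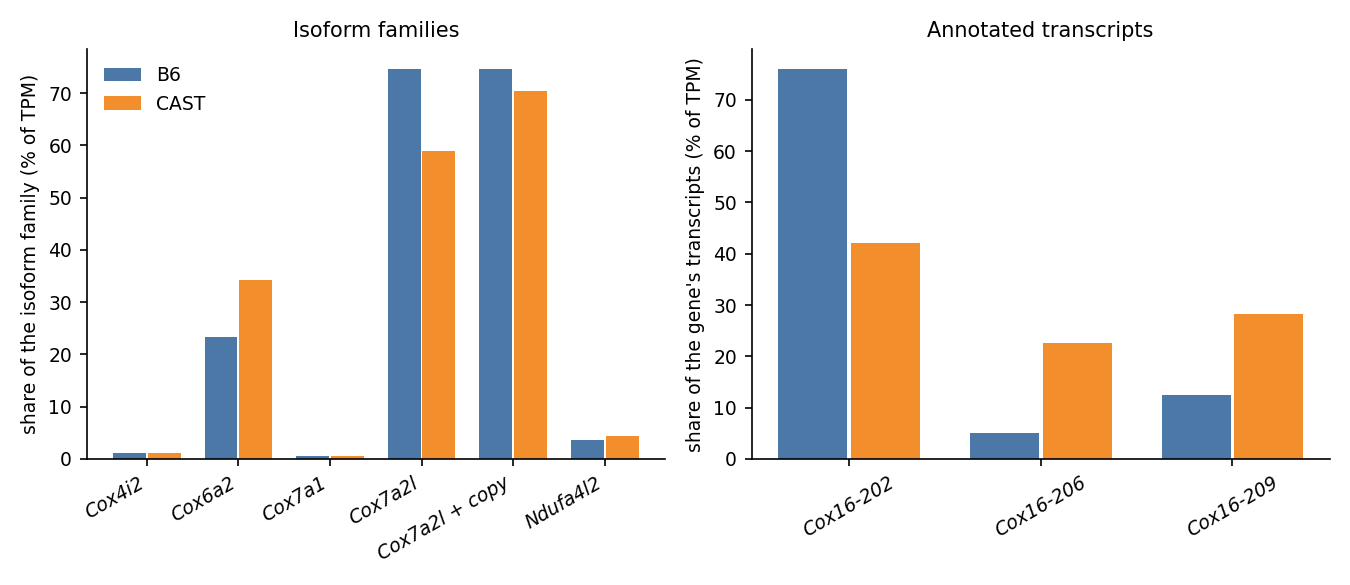
Share of a gene in the summed TPM of its isoform family (left) and of annotated transcripts in the TPM of their gene (right), in the B6 and the CAST library. Cox6a2 is at 23.4% and 34.3% of its pair and Cox7a2l at 74.5% and 59.0% of its family (74.7% and 70.4% with its copy), and Cox16-202 at 76.1% and 42.1% of Cox16.

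Complex V, the ATP synthase, had a nuclear median of 0.25, with 13 of its 16 nuclear genes with enough counts above the all-gene median. The catalytic beta subunit Atp5b had 35688 counts in the B6 and 57672 in the CAST library (log2 0.40, 0.38 to 0.42), and the alpha subunit Atp5a1 35870 and 51802 (0.24, 0.22 to 0.26). Highest was Atp5o, which encodes the stalk subunit that gives oligomycin sensitivity, with 2886 and 5295 (0.59, 0.52 to 0.65). The head and stalk genes thus mostly lay above the all-gene median, with Atp5e, the epsilon subunit of the central stalk, below it at 4963 and 4711 (-0.36, -0.42 to -0.31) and no copy. Atp5s, coupling factor B, was lower too, at 800 and 811 (-0.27, -0.41 to -0.13). Atp5h, subunit d of the outer stalk, had 5591 and 5448 (-0.33, -0.38 to -0.27), and with Gm10250 (9 and 2910) and 2 minor copies it was at 0.29.

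Subunit c, which makes up the rotating ring, is encoded by 3 genes that yield the same mature protein. Atp5g3 had 9072 counts in the B6 and 13895 in the CAST library (0.33, 0.29 to 0.36) and Atp5g1 3178 and 5672 (0.55, 0.48 to 0.61). Atp5g2 is listed at 0 in both libraries, while Gm10231, a processed pseudogene on chromosome 17 identical to the transcript Atp5g2-201 over 441 bases, had 7338 and 10894. Reads of these 2 loci cannot be told apart over that stretch, so the 0 for Atp5g2 does not show that the gene was silent. Atp5l, subunit g, had 6139 and 11048 (0.56), and its identical copy Gm10221 2213 and 2176, which gave 0.37 for all copies summed.

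mt-Atp6 and mt-Atp8, the mitochondrially encoded subunits of complex V, overlap on 1 transcript and lay together. They had 168081 and 282373 counts (log2 0.46, 0.45 to 0.47) and 20249 and 36688 (0.57, 0.54 to 0.59). These were the highest ratios of the 13 mitochondrial genes taken alone. With TPM both still lay above the all-gene median of -0.26.

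With copies summed over all genes, 36 members were higher in CAST by at least 25% and 5 were higher in B6, against 21.5% and 21.9% of 16205 genes. In this background each gene and each copy also holds the counts of its own copies, so the same reads enter it repeatedly. Cox6a2 stayed at least 2-fold higher in CAST and mt-Nd3 in B6, against 6.27% and 5.78%. Ndufs5 no longer did. For nuclear subunits the median with copies was 0.29, and among the 59 with no copy and enough counts it was 0.28.

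The levels of the members kept nearly the same order in both libraries. Spearman's rho of TPM was 0.96 across the 102 nuclear members with enough counts and 0.93 across all 14768 genes, as a description across genes that share 2 libraries. In B6 the nuclear subunits had a median of 74.4 TPM and the assembly factors 10.1, and in CAST 69.5 and 8.12. The mitochondrially encoded genes ran from 607 to 7737 TPM in B6 and from 448 to 6491 in CAST. The lowest in B6 was mt-Nd4l, which was at 1214 TPM there with its identical copy. mt-Co1 led in B6 (7737 TPM) and mt-Co3 in CAST (6491), where mt-Co1 was at 3689 without its copy. Together the 108 nuclear members made up 0.821% of transcript molecules in B6 and 0.776% in CAST.

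**Figure D5:**
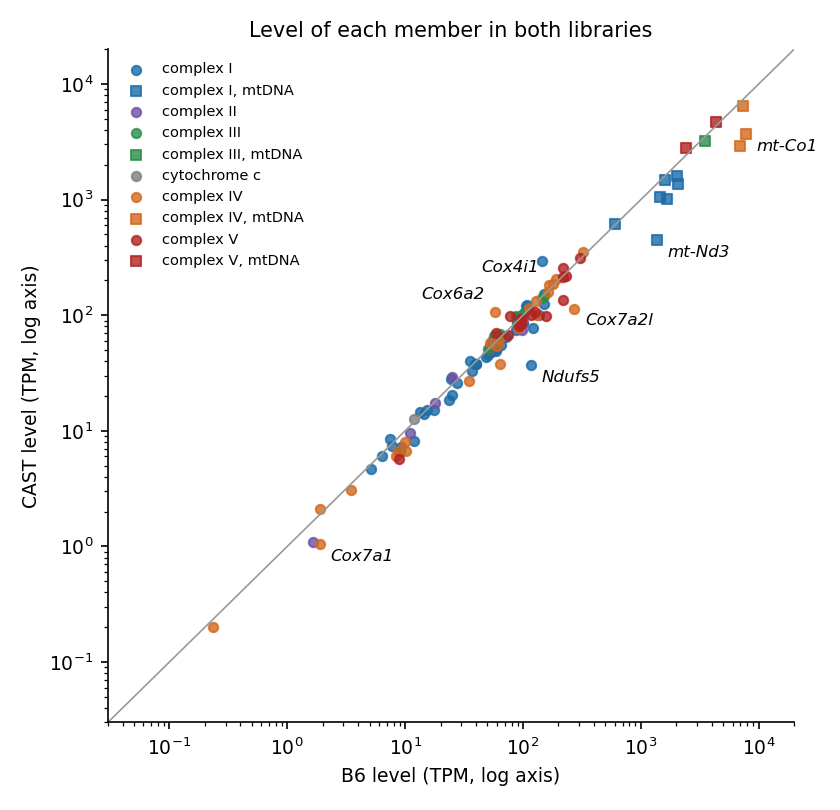
Level of each member in B6 (x axis) and CAST (y axis) in TPM, both on log axes, coloured by complex, with squares for mitochondrially encoded genes and the line of equal level. Members at 0 in either library are not drawn; Cox6a2 stands above the line, and Cox7a2l, Ndufs5, mt-Nd3 and mt-Co1 below it.

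Genes that serve the chain without being members lay closer to the all-gene median than the nuclear subunits did. Of 33 other assembly factors with enough counts, 4 were higher in CAST by at least 25% and 1 was higher in B6 (median 0.08), where 22.2% and 23.2% of all genes were, with Lyrm7, which loads the Rieske protein of complex III, highest at 275 counts in the B6 and 713 in the CAST library (1.08, 0.88 to 1.29). Of 25 genes of mitochondrial DNA maintenance and expression, 4 were higher in CAST and 4 in B6 (median 0.01), with Lrpprc, which stabilises mitochondrial mRNAs, lowest at 5629 and 4716 (-0.54, -0.60 to -0.49). Of 19 regulators of mitochondrial biogenesis, 3 were higher in each library (median 0.04). Nrf1, a factor that binds many of these promoters, had 1877 and 1973 counts (-0.22), the coactivator gene Ppargc1a 196 and 189 (-0.34), Esrrg 948 and 1694 (0.55) and Pparg 571 and 218 (-1.68, -1.91 to -1.45). Of 26 genes of electron entry and carriers, 6 were higher in CAST, a share near that of all genes, and 2 in B6 (median 0.05). Gpd2, the mitochondrial glycerol phosphate dehydrogenase, had 8337 and 5699 (-0.84, -0.89 to -0.79), and Nnt, a transhydrogenase in which C57BL/6J mice are known to carry a deletion, 2097 and 4571 (0.84, 0.76 to 0.91).

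Promoters of the nuclear members are described here as background. RefSeq promoters (250 bases before to 50 after the start, GRCm38.p6) matched 86 of the 108 nuclear members, with 92 promoters. The core GCGCATGCG of the motif of NRF1, searched on both strands, was in 11 of these (12.0%) against 1.75% of 32851 promoters of the same length. The ETS motif CCGGAAG, bound by GABPA, was in 27 (29.3%, against 8.86%), and the YY1 motif AAGATGGC in 12 of the 92 (against 2.75% of all). The ERR motif TCAAGGTCA was in 2 (2.17%, against 0.423%) and the CREB motif TGACGTCA in 5 (5.43%, against 1.79%). Positions of the motifs may overlap. These are matches of letters in reference promoters and say nothing of a difference between the libraries. For complexes I, IV and V and for cytochrome c, the member of highest TPM in B6 that holds the NRF1 letters and 10 bases on either side of them before its RefSeq start is printed, with the motif in capitals. For Atp5k the GENCODE M21 gene starts at 108434448, which lies inside the motif.

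Ndufa11 (chr17:56717692-56717720, plus strand): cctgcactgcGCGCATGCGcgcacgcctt
Cycs (chr6:50566612-50566640, minus strand): catgctagctCGCATGCGCgcgcacaaac
Cox6a1 (chr5:115349102-115349130, minus strand): caggaacgggGCGCATGCGcgctctcgct
Atp5k (chr5:108434431-108434459, minus strand): tttcactgcgGCGCATGCGcctttctggc

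The genes of these promoters had log2 ratios of 0.33, 0.54, 0.47 and 0.17. The other members with the NRF1 letters ran from 0.03 (Ndufaf4) to 0.59 (Uqcrc1), apart from Atp5g2, which is listed at 0 counts. Ratios of members with and without the motif were not compared.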

How the data were processed

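RNA of pooled islets was measured in 1 library per strain. The authors deposited, for each of 94545 Ensembl transcripts, an expected count and a fraction of transcripts from RSEM on GRCm38, per the submitters' processing notes. The aligner, versions, annotation and strand setting are not stated in the sources used here, so overlapping genes (28 nuclear members) cannot be told apart by strand. Expected counts were rounded after summing over the transcripts of a gene. Of 38924 IDs, 37607 matched GENCODE M21. The deposited fraction times 1000000 is TPM. Scaling used TMM (edgeR 4.0.16, R 4.3.3), with total counts, DESeq2 1.42.0 size factors and TPM as alternatives. Intervals are exact Clopper-Pearson intervals (95%) of the CAST share of counts; the limit of a 0 is 3 counts. Copies were found with minimap2 2.31-r1302 (95% identity, at least 200 bases or, for members, 150, and 50% of the shorter transcript, same strand). Members were searched with all their listed transcripts, other genes with their longest only. The ratio was also run on simulated libraries that held counting error only. These do not cover differences between mice or reads shared among copies. Windows of 60 aligned bases within 1 coding exon with the most differences were printed.

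Members and lists were chosen with earlier results of these data known. The rules for naming took all 13 mitochondrial genes, the 3 highest, 3 lowest and 3 most abundant of each complex, and all isoform families. They also took members at least 2-fold apart, moved by over 0.5 with copies, or with a main transcript changed by 30 points or more. Some of these, among them Uqcrb, Uqcrc2, Uqcrh, Sdhaf1 and Cox6b1, have no values printed here. The pathway genes named are the highest or lowest of their list, apart from Ppargc1a and Nrf1. Others (among them Ndufs1, Ndufv1, Ndufb8, Ndufb9, Ndufa6, Cyc1, Uqcrfs1, Cox5a, Cox5b, Cox16, Atp5a1 and all copies) were picked with their values in view. Some members and list genes are not reported by name here.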

Additional observations from a re-analysis of the deposited data

How the results depend on the processing

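No paired analysis was possible because each strain had 1 library, and there was no replicate to leave out. Scaling moved the medians most, and summing copies moved some single members further. With total counts the median log2 ratio was 0.13 for nuclear subunits, -0.14 for mitochondrially encoded genes, and 0.056, 0.026, 0.19, 0.065 and 0.093 for the nuclear members of complexes I to V, with 19 and 14 members higher by at least 25% in CAST and B6 and 4 higher by at least 2-fold in B6. With TPM (1 added) these medians were -0.065, -0.33, -0.12, -0.13, -0.0032, -0.083 and -0.12, and the counts 3, 24 and 5. Of the members named by rule and at least 25% apart with TMM, Sdhb (-0.0080), Atp5g3 (-0.015) and Cox7b (-0.0024) changed sign with TPM. Of the other members named above, Cyc1 (-0.0036), Uqcrfs1 (-0.0032) and Ndufa11 (-0.010) did so too, as did smaller ratios. Of 49 members named by rule with a ratio, 46 left their counting interval with total counts. The median of all genes was then itself -0.14 and -0.26. With DESeq2 size factors or TMM without hormone genes and acinar markers, all of these medians and all 49 named members stayed within their counting interval (for a median, the median bounds of its genes).

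With copies summed, at 95% or, chosen after seeing the data, 90% identity, 5 members were at least 25% and 1 at least 2-fold higher in B6, Ndufs5 came to 0.00015 and Atp5h to 0.29. Among members with no copy, 3 were 25% and 1 was 2-fold higher in B6, and the median of mitochondrially encoded genes was 0.094. Without assembly factors the complex IV median was 0.39. The filters at 20 and 1000 counts, unrounded counts and, chosen after seeing the data, protein-coding transcripts only moved no median out of its interval.

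Nuclear members made up 0.572% (B6) and 0.610% (CAST) of the library. These shares came to 0.767% and 0.872% of counts outside hormone genes and acinar markers, 0.592% and 0.640% with copies, and 0.821% and 0.776% of transcript molecules. For mitochondrially encoded genes the 3 shares were 4.23% and 3.51%, 3.17% and 2.96%, and 4.31% and 3.13%. By counts in place of TPM, the family shares in B6 and CAST were 26.4% and 37.99% for Cox6a2, 81.4% and 68.3% for Cox7a2l and 7.36% and 9.07% for Ndufa4l2. With its copy, Cox7a2l was at 70.4% of TPM in CAST (added after seeing the data). By counts 1 member in place of 4 had another main transcript. The cause of these differences was not tested. With 1 library per strain, depth limits only the counting error, and differences between mice were not measured.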
